A study of Mus musculus with 21 samples.

Results

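The mitochondrial ribosomal protein genes of mouse were taken as every gene whose symbol starts with Mrpl or Mrps followed by a digit, with pseudogenes left out. There were 78 such genes among the 20145 gene symbols measured, and 6 pseudogenes were left out. Symbols came from the RefSeq accessions printed with the array probes, and where a gene had more than 1 probe, the brightest on average across the 21 arrays stood for it. By the known position of each protein, 51 members belong to the large subunit of the mitochondrial ribosome and 26 to the small subunit. The large-subunit count includes Mrps18a and Mrps30, which carry small-subunit names. Mrps36 belongs to neither, since its product is a component of the 2-oxoglutarate dehydrogenase complex. Counterparts in bacterial ribosomes are known for 48 members, while 29 are proteins found only in mitochondrial ribosomes.

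All RNA came from MIN6m9, a subclone of the mouse insulinoma line MIN6, which makes and secretes insulin. In the fatty acid experiment, wild-type cells received palmitate at 400 uM for 48 h, oleate at 400 uM for 48 h, or neither (n = 3 arrays each). In the PERK experiment, cells carrying the transgene Fv2E-PERK received the dimeriser AP20187 at 1 nM for 6, 12, 24 or 48 h, or a mock treatment (n = 2 arrays each). Fv2E-PERK is a form of the eIF2alpha kinase PERK that is switched on when AP20187 brings 2 copies together, so the drug starts the integrated stress response without a stress. Wild-type cells with the mock treatment formed the last group (n = 2). The vehicle for AP20187 was ethanol. The sources used here do not give the promoter of the transgene, whether the line is a clone, or when untreated and mock cells were harvested. No wild-type cells given AP20187 were analysed, so effects of the drug itself and of the kinase cannot be told apart.

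Mitochondrial ribosomes translate the few mRNAs encoded in mitochondrial DNA, which specify core subunits of the respiratory chain and ATP synthase. Their RNA comes from mitochondrial DNA, but every one of their proteins is encoded in the nucleus, made on cytosolic ribosomes and imported. Beta cells rely on mitochondrial ATP to couple glucose to insulin release, and their insulin secretion fails when mitochondrial gene expression is blocked.

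Values below are log2 signals relative to the array's 75th percentile, and a log2 change is the difference between 2 group means, with its standard error. A gene rose or fell where limma's p-value was under 0.05 after Benjamini-Hochberg adjustment across every entry tested. An entry is a gene symbol, or an accession without one. Nothing in the labels says that replicates came from separate cultures, so a p-value reflects only how far these arrays scatter, and the small number of arrays limits the precision. Of the 78 members, 77 were tested in both experiments. The exception was Mrpl21, whose probe was well above background on no array. Within groups, the median SD over members was 0.04 to 0.06 with or without fatty acids and 0.02 to 0.08 in the PERK groups.

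The marker genes of beta cells were present, with 8 to 10 of 10 well above background on every array. The count of 8 was on untreated array 2, where Iapp and Chga had no value. With AP20187 their median change was between -1.02 and -0.63 at the 4 times, and 10, 10, 10 and 8 fell. Of all entries 40, 40.5, 40.4 and 34.6% fell at these times. The marker falls are relative to a percentile of each array, so their size depends on the scaling. Scaling to the spiked-in control RNA moved the median of all entries from -0.22, -0.19, -0.2 and -0.07 to 0.49, 0.54, 0.75 and 0.57. Among the beta cell markers Ucn3 was above background on no Fv2E-PERK mock, 6 h, 12 h or 24 h array. It is counted in the falls at 6, 12 and 24 h, where both groups were at background for it. In such bulk RNA, fewer cells of a type and less RNA per cell cannot be told apart. Heart muscle markers moved with the fatty acid groups. On palmitate arrays 1 to 5 of 9 were well above background with a list median of -6.81 to -4.47, against 8 to 9 of 9 and 0.29 to 0.77 on oleate arrays and 8 of 9 and 0.17 to 0.62 on untreated arrays. Tnnt2, Tnni3 and Mybpc3 were above background on no palmitate array, and Myl7 on no palmitate or untreated array. Of 8 tested, 6 fell and 1 rose with palmitate against untreated cells, where 12.6% of all entries fell and 7.41% rose. Ryr2 went the other way, with -0.35, -0.65 and -0.56 on palmitate arrays, against -1.09, -1.14 and -1.13 on untreated arrays. Skeletal muscle markers had a median of 0.35 and 0.47 on palmitate arrays 1 and 2, against -5.40 on palmitate array 3 and at most -4.25 on untreated and oleate arrays. The part of these markers in the fatty acid results was not tested, and results without palmitate arrays 1 and 2 are given beside them. Those results rest on palmitate array 3, which lay on another slide than all other fatty acid arrays. Slide and palmitate cannot be told apart in them.

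In Fv2E-PERK cells given AP20187, some mitochondrial ribosomal protein genes rose and others fell, relative to a percentile of each array. The numbers that rose were 21, 22, 29 and 23 at 6, 12, 24 and 48 h, and the numbers that fell were 22, 21, 21 and 28. In all, 55.8, 55.8, 64.9 and 66.2% of the tested members passed the threshold at the 4 times. The same was true of 64.9, 67.7, 67.4 and 61.8% of all entries, so the share of members that changed was near the background. The background was 24.9, 27.2, 27 and 27.2% for a rise and 40, 40.5, 40.4 and 34.6% for a fall. When arrays were scaled to the spiked-in control RNA instead, 0 members fell at any of these times. Under that scaling 4.82, 6.79, 4.1 and 5.85% of all entries fell. All 4 comparisons share the Fv2E-PERK mock arrays. The arrays of 48 h lay on another slide than the mock arrays, so slide and time cannot be told apart there. Against wild-type mock, which shared the slide of the 48 h arrays, 23 members rose and 27 fell at 48 h, 64.9% in all, where 63.8% of all entries passed, 27.5% higher and 36.3% lower. Against that group Mrps30 rose by 1.33 and Mrps27 by 1.13, while Mrps33 changed by -1.13 and Mrps21 by -1.08 and fell. These groups differ in genotype as well as in AP20187, so drug and transgene cannot be told apart in them. Mrps30 was 0.65 higher in Fv2E-PERK mock than in wild-type mock cells, before the drug.

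The median member moved little on this scale while the median entry was lower. Medians of the members were -0.01, -0.05, 0.03 and -0.06 at 6, 12, 24 and 48 h, against -0.22, -0.19, -0.20 and -0.07 over all entries. Of the 77 members, 54, 54, 56 and 40 lay above the median entry. Changes of single members spread from -1.11 to 0.90 at 6 h, from -1.13 to 1.05 at 12 h, from -0.96 to 1.29 at 24 h and from -1.08 to 1.08 at 48 h. Their SD over members was 0.42 to 0.49, against 0.85 to 0.99 over all entries, with standard errors of 0.06 to 0.12 for a single member.

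Whether members fell depended on the scaling. The signal at the 75th percentile was 469.0 to 823.3 on AP20187 arrays and 391.0 and 463.4 on the mock arrays. When arrays were scaled to the spiked-in control RNA instead, the median of all entries moved to 0.49, 0.54, 0.75 and 0.57 at the 4 times, and 54, 56, 66 and 45 members rose while 0 fell. Those that rose were 70.1, 72.7, 85.7 and 58.4% of the members, against 44, 47.7, 59.6 and 49.3% of all entries. Few entries fell there at all, 4.82, 6.79, 4.1 and 5.85%. Quantile normalization gave 39, 38, 34 and 35 members that rose and 11, 13, 12 and 16 that fell. Under it 50.6, 49.4, 44.2 and 45.5% of the members rose, against 28.9, 31.6, 30.8 and 30.1% of all entries. Falls made up 14.3, 16.9, 15.6 and 20.8% of the members, against 30.1, 33.1, 33.9 and 30.5% of all entries. All members that rose at the 4 times on the main scale also rose under quantile normalization, spike-in scaling and normexp background correction. Of the members that fell, 11, 13, 12 and 16 also fell under both quantile normalization and normexp. Falls below are therefore falls relative to the 75th percentile. The distance of the median member from the median entry was 0.22, 0.14, 0.24 and 0.01, which a constant per array such as the spike-in scaling cannot move. It was 0.25, 0.21, 0.20 and 0.15 with quantile normalization and 0.37, 0.22, 0.30 and 0.25 with normexp.

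**Figure D1:**
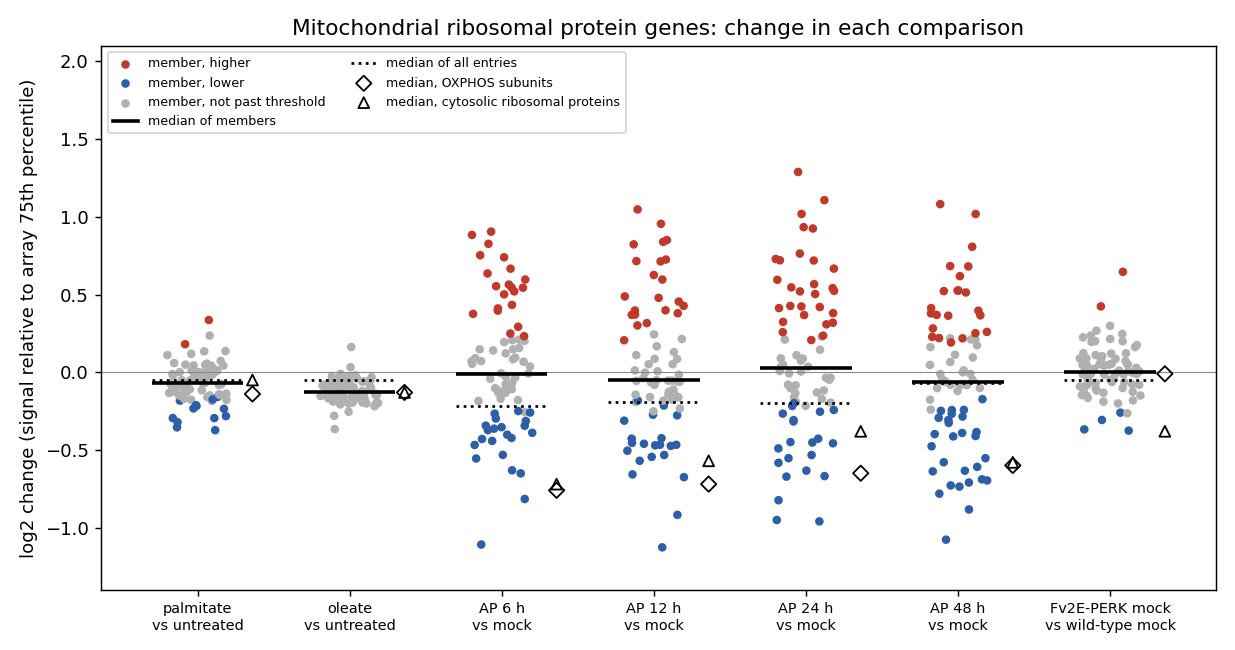
Log2 change of each of the 77 tested mitochondrial ribosomal protein genes (points) in 7 comparisons, on the scale of the array's 75th percentile. Solid bars mark the median of the members, dotted bars the median of all entries, diamonds the median of oxidative phosphorylation subunits and triangles that of cytosolic ribosomal proteins. With AP20187 the members lie on both sides of 0 while both other lists have medians of -0.76 to -0.38. With spike-in scaling 0 members fell at any AP20187 time, where 4.82, 6.79, 4.1 and 5.85% of all entries fell at the 4 times.

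Mrpl9, a large-subunit protein with a bacterial counterpart, had signals of 3.05 and 2.91 (6 h), 3.12 and 3.28 (12 h), 3.37 and 3.52 (24 h) and 3.19 and 3.16 (48 h), against 2.22 and 2.09 in mock Fv2E-PERK cells. Every AP20187 array was above both mock arrays. The log2 changes were 0.83, 1.05, 1.29 and 1.02 (SE 0.09, adjusted p of 0.00012, 2.6e-05, 9.7e-06 and 4.1e-05 by limma).

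Mrps6, a small-subunit protein with a bacterial counterpart, had signals of 4.31 and 4.24 (6 h), 4.46 and 4.46 (12 h), 4.88 and 5.01 (24 h) and 4.55 and 4.49 (48 h), against 3.94 and 3.74 in mock cells. No AP20187 array overlapped the mock arrays, and the 24 h arrays were the highest. Its changes were 0.43, 0.63, 1.11 and 0.68 (SE 0.12), and it rose at all 4 times. In the RefSeq annotation Mrps6 overlaps Slc5a3, which encodes a myo-inositol transporter and was looked up after the values were seen. The changes of Slc5a3 were -0.44, 0.12, -0.29 and -0.45 (SE 0.15, adjusted p of 0.031, 0.51, 0.12 and 0.028 by limma).

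Mrps27, a small-subunit protein found only in mitochondria, had signals of 0.48 and 0.37 (6 h), 0.29 and 0.18 (12 h), 0.46 and 0.71 (24 h) and 0.98 and 0.90 (48 h), against -0.12 and -0.16 in mock cells. All AP20187 arrays were above the mock arrays and the 48 h arrays were the highest. It rose by 0.56, 0.37, 0.72 and 1.08 (SE 0.10).

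Mrps30, a large-subunit protein despite its name, had signals of 4.61 and 4.43 (6 h), 4.61 and 4.58 (12 h), 4.66 and 4.75 (24 h) and 4.46 and 4.44 (48 h), against 3.83 and 3.71 in mock cells. It rose by 0.75, 0.82, 0.93 and 0.68 (SE 0.08). Mrpl32, which must be cut by a mitochondrial protease before it joins the large subunit, rose by 0.74, 0.96, 1.02 and 0.62 (SE 0.11). Afg3l2 and Spg7 encode subunits of the m-AAA protease that cuts it. Spg7 changed by -0.38, -0.49, -0.62 and -0.54 and fell at each time, whereas Afg3l2, at -0.22, -0.28, -0.10 and -0.29, did not pass the threshold.

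Other members with large rises came from both subunits. In the large subunit, Mrpl49 rose by 0.88, 0.85, 0.73 and 0.51, Mrpl38 by 0.64, 0.48, 0.93 and 0.40 and Mrpl35 by 0.55, 0.84, 0.52 and 0.52. The second probe of Mrpl49 gave 0.14, 0.23, 0.04 and -0.43, called higher at 12 h and lower at 48 h. In the small subunit, Mrps35 rose by 0.60, 0.72, 0.76 and 0.37 and Mrps22 by 0.52, 0.73, 0.59 and 0.37, both found only in mitochondrial ribosomes.

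Mrps21, a small-subunit protein with a bacterial counterpart, was lower than in mock cells on every AP20187 array. Its signals were 4.71 and 4.65 (6 h), 4.57 and 4.75 (12 h), 4.69 and 4.97 (24 h) and 4.93 and 4.88 (48 h), against 5.80 and 5.77 in mock cells. The changes of -1.11, -1.13, -0.96 and -0.88 (SE 0.11) included the most negative member value at 6, 12 and 24 h on this scale.

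Mrps33, a small-subunit protein found only in mitochondria, had signals of 5.56 and 5.38 (6 h), 5.31 and 5.57 (12 h), 5.10 and 5.24 (24 h) and 5.09 and 4.99 (48 h), against 6.13 and 6.11 in mock cells. The groups did not overlap. It fell by 0.65, 0.68, 0.95 and 1.08 on the log2 scale (SE 0.12), but with spike-in scaling its change was 0.06, 0.06 and 0.0003 at 6, 12 and 24 h. Its second probe gave -0.68, -0.66, -0.83 and -1.17 on the main scale.

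Further members fell relative to the 75th percentile at all 4 times. Among large-subunit proteins with bacterial counterparts, Mrpl34 changed by -0.63, -0.92, -0.82 and -0.78, Mrpl11 by -0.53, -0.66, -0.58 and -0.69 and Mrpl14 by -0.40, -0.43, -0.46 and -0.74. Mrpl42 changed by -0.82, -0.54, -0.45 and -0.48. Mrps36, the dehydrogenase component, changed by -0.42, -0.47, -0.55 and -0.38. The brighter probes of Mrps25 and Mrpl41 gave -0.73 and -0.71 (48 h), while their second probes gave 0.42 and 0.17, of which the value of Mrps25 was called higher. In all, 21 tested members had a second probe that could be compared at 48 h, of which 13 had the same sign as the first, and 3 were called in the opposite direction.

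**Figure D2:**
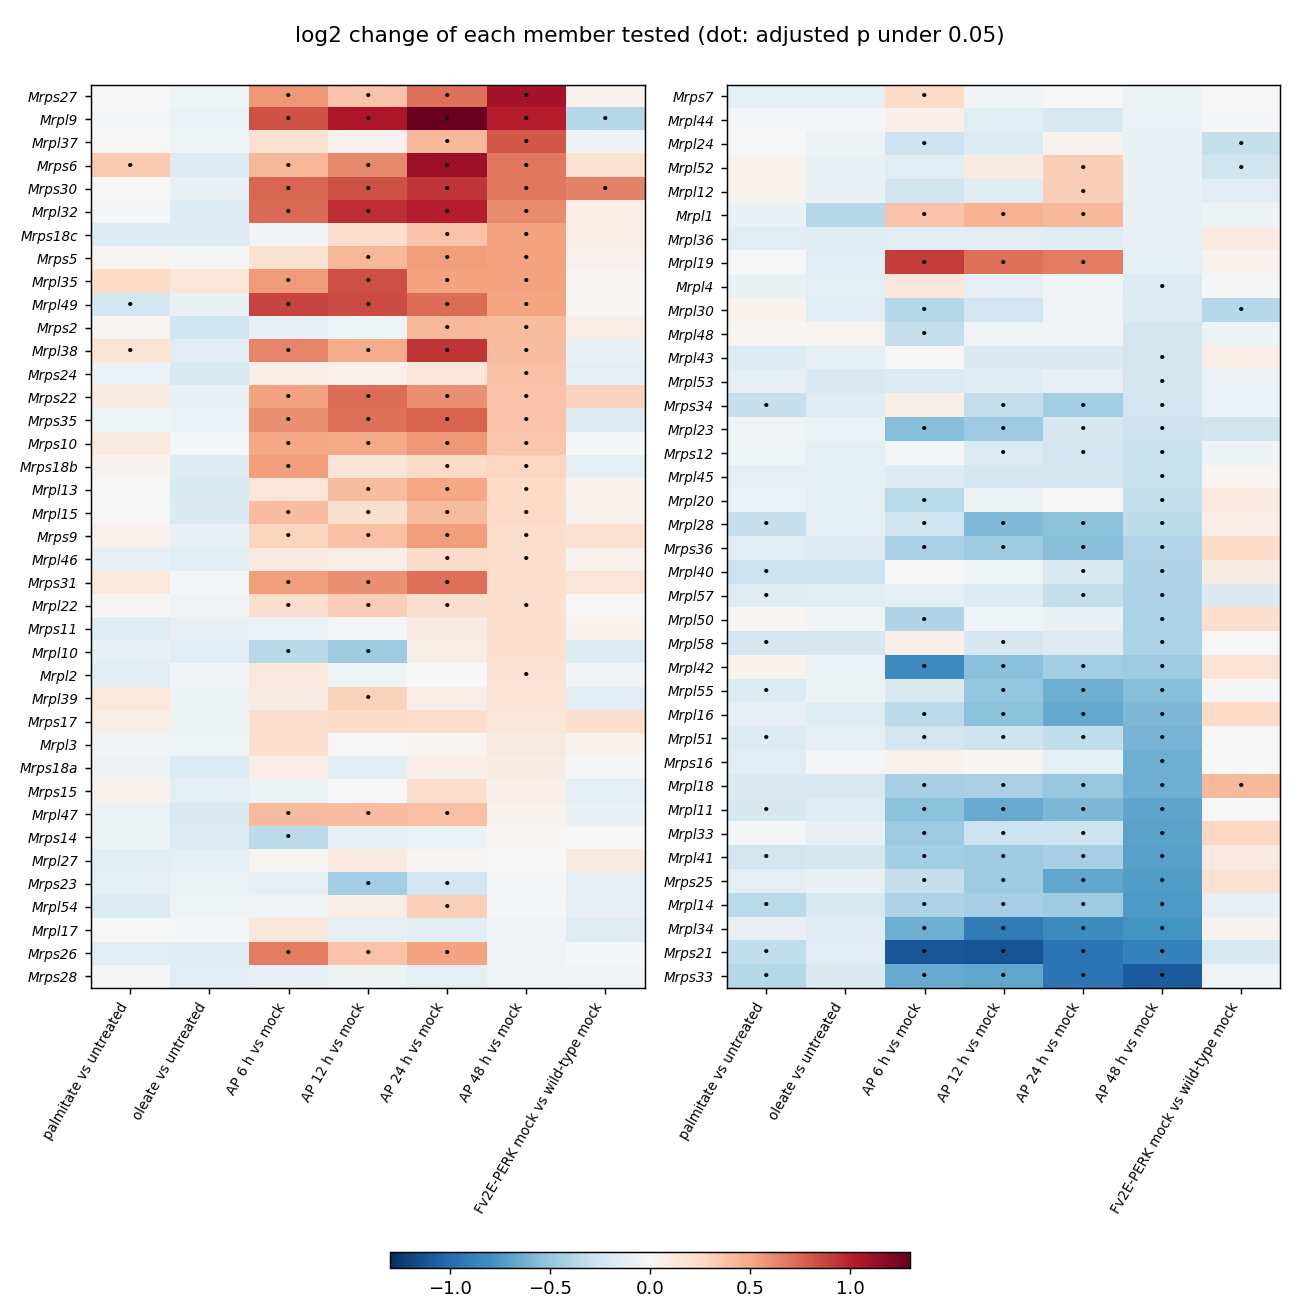
Log2 change of each of the 77 tested members (rows, in order of their change at 48 h of AP20187) in 7 comparisons (columns), on the scale of the array's 75th percentile, with a dot where the adjusted p was under 0.05. Red is higher and blue lower in the first group named. The rows with a dot and blue in the 48 h column, in the right panel, are the 28 members that fell at 48 h on this scale, of which 0 fell with spike-in scaling. Under that scaling 5.85% of all entries fell at 48 h.

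The course over time differed between members. Between 48 h and 6 h of AP20187, 34 members differed, 11 higher and 23 lower, which is 44.2% of those tested against 60.8% of all entries (33.2% higher and 27.6% lower). At 48 h the arrays lay on another slide than at 6 h, so slide and time cannot be told apart. Between 24 h and 6 h, which shared a slide, 18 members were higher and 10 lower, 36.4% of those tested against 39.3% of all entries (20.8% higher and 18.5% lower). That count ranged from 10 to 29 when single arrays were left out, with 10 without replicate 2 of 6 h, 15 without replicate 1 of 6 h and 16 without replicate 2 of 24 h. With spike-in scaling 8 were higher and 0 lower between 24 h and 6 h, where 17.8% of all entries were higher and 3.48% lower.

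Mrpl19 was high early. Its signal was 1.73 and 1.62 (6 h), 1.53 and 1.44 (12 h) and 1.51 and 1.37 (24 h), against 0.85 and 0.70 in mock cells, while the 48 h arrays at 0.68 and 0.62 were below the mock arrays. The change between 48 h and 6 h was -1.03 (SE 0.12, adjusted p = 0.00016 by limma). Mrps26 had 6.23 and 6.08 (6 h) and 5.42 and 5.46 (48 h), against 5.53 and 5.45 in mock cells. Its second probe was 0.65 above mock at 6 h and 0.52 above it at 48 h, with -0.12 between 48 h and 6 h, which did not pass.

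Mrps16 was lower only late among the 4 times tested. Its signal was 4.50 and 4.49 (48 h), against 5.13 and 5.13 in mock cells, with values of 4.95 to 5.25 at the earlier times. The difference between 48 h and 6 h was -0.69 (SE 0.09, adjusted p = 0.00035 by limma).

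Mrpl37, Mrps18c, Mrpl10, Mrps2 and Mrps27 were higher at 48 h than at 6 h, by 0.61, 0.56, 0.57, 0.52 and 0.52. Between 24 h and 6 h, Mrps6 was higher by 0.67, Mrpl12 by 0.58 and Mrps2 by 0.54, and Mrps34 was lower by 0.52 on the log2 scale (a change of -0.52). Mrpl12 encodes the stalk protein of the large subunit, which is also known to bind the mitochondrial RNA polymerase.

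**Figure D3:**
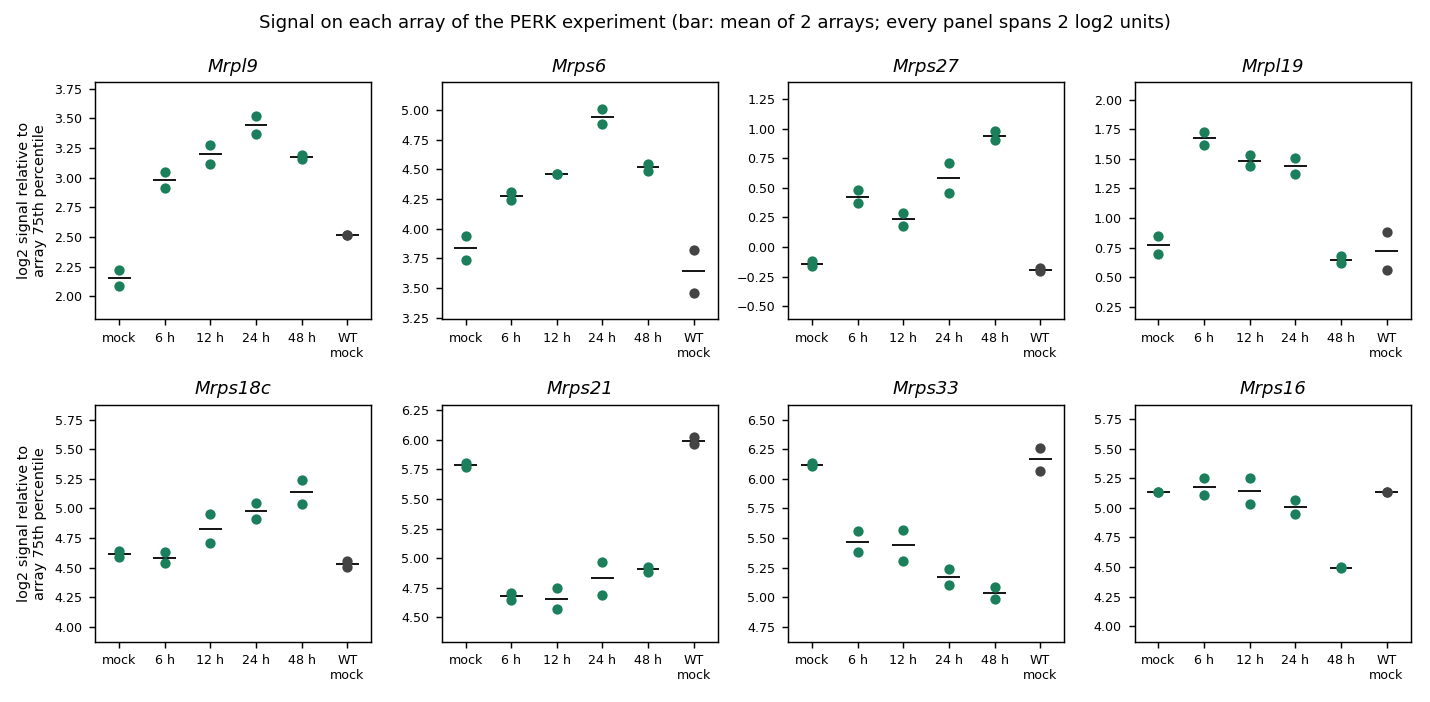
Log2 signal of 8 members on each array of the PERK experiment (points) with the mean of 2 arrays (bars), relative to the array's 75th percentile, for mock Fv2E-PERK cells, 4 AP20187 times and wild-type mock cells. Each panel spans 2 log2 units. Mrpl9, Mrps6 and Mrps27 lie above mock at every time, Mrpl19 is back at mock level by 48 h, and Mrps21 and Mrps33 lie below mock on this scale, though Mrps33 was at 0.06, 0.06 and 0.0003 at 6, 12 and 24 h with spike-in scaling.

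The 3 proteins of the Mrps18 family, which share descent from 1 bacterial protein but sit at different places in the ribosome, had different courses. Mrps18a, in the large subunit, changed by 0.09, -0.14, 0.09 and 0.09 (SE 0.08) and did not pass the threshold at any time. Mrps18b rose by 0.55 at 6 h, 0.26 at 24 h and 0.28 at 48 h, with 0.17 at 12 h, which did not pass. Mrps18c rose by 0.37 at 24 h and 0.53 at 48 h, with -0.03 at 6 h and 0.21 at 12 h, which did not pass.

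Grouped by subunit, the large subunit had 11, 13, 17 and 12 members that rose at the 4 times and 17, 14, 14 and 21 that fell, of 50 tested. In the small subunit, 10, 9, 12 and 11 rose and 4, 6, 6 and 6 fell, of 26 tested. Of all entries 24.9, 27.2, 27 and 27.2% rose and 40, 40.5, 40.4 and 34.6% fell at these times. The median change of small-subunit members was 0.08, 0.03, 0.22 and 0.19, against -0.02, -0.12, -0.02 and -0.10 in the large subunit. These medians are descriptions on the scale of the 75th percentile, and the difference between subunits was not tested. Members with bacterial counterparts had 15 that rose and 14 that fell at 48 h of 47, and mitochondria-specific members 8 and 13 of 29.

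On the main scale, the direction of change went with the brightness of the probe. Among the 26 brightest members, 4 rose and 15 fell at 48 h, while among the 25 dimmest 13 rose and 4 fell. The background at 48 h was 27.2% of all entries for a rise and 34.6% for a fall. Shares for entries of like brightness are not given here. With spike-in scaling 0 members fell at 48 h, where 5.85% of all entries fell. Over the 77 members, Pearson's r between mean signal and change was -0.43, -0.43, -0.43 and -0.54 at 6, 12, 24 and 48 h. Over all 23388 entries it was -0.07, -0.13, -0.07 and -0.27. These points share arrays, scaling and probe design, so the values are descriptions.

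**Figure D4:**
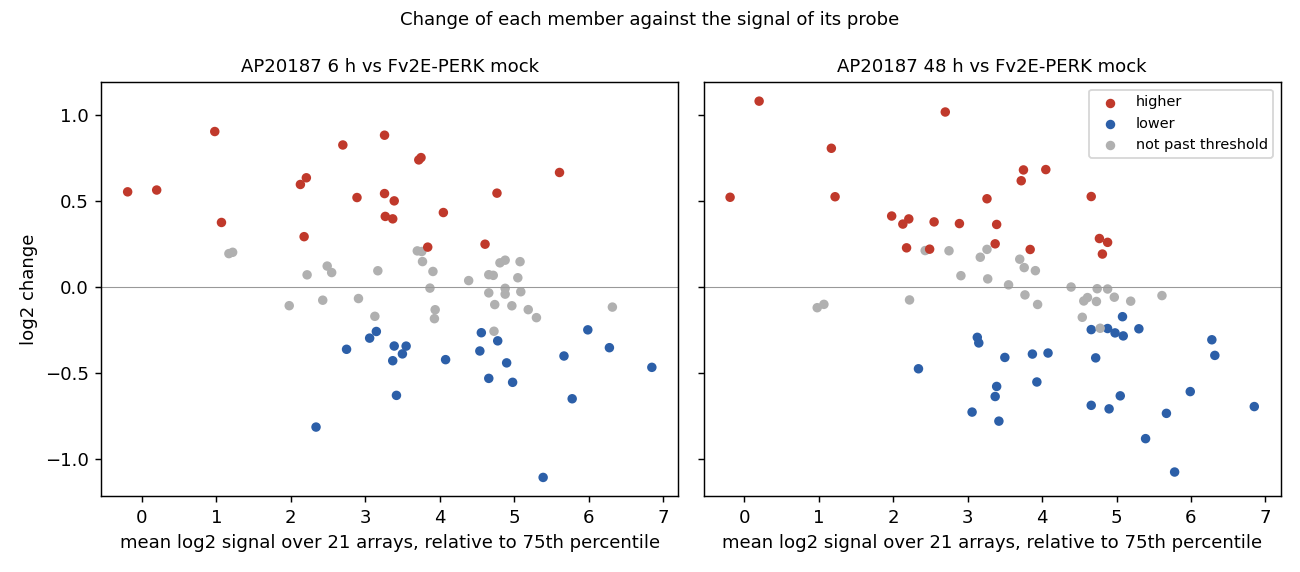
Log2 change of the 77 tested members (vertical axis, scale of the array's 75th percentile) against the mean log2 signal of the member's probe over 21 arrays (horizontal axis), for 6 h and 48 h of AP20187 against Fv2E-PERK mock. Points to the left, from dimmer probes, are mostly above 0 and points to the right mostly below 0 at 48 h, with Pearson's r of -0.43 and -0.54. With spike-in scaling 0 members fell, where 4.82% of all entries fell at 6 h and 5.85% at 48 h.

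Other proteins of the mitochondrial ribosome have symbols outside the family. Ptcd3, a small-subunit protein that binds RNA, rose by 0.93, 1.26, 1.29 and 0.63. Dap3, the GTP-binding protein of the small subunit, changed by -0.39, -0.40, -0.32 and -0.34 and fell at each time on this scale. Aurkaip1, another small-subunit protein, changed by -0.81, -0.86, -0.75 and -0.46 and also fell at each time. Chchd1 fell only at 48 h among the 4 times, with -0.53, and Gadd45gip1 (0.06, 0.04, 0.18 and 0.16) did not pass the threshold.

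Among factors that assemble mitochondrial ribosomes more rose than fell at each time. Of 26 tested, 17, 16, 13 and 11 rose at 6, 12, 24 and 48 h, and 2, 5, 2 and 3 fell, with medians of 0.54, 0.51, 0.24 and 0.23. Of all entries 24.9, 27.2, 27 and 27.2% rose and 40, 40.5, 40.4 and 34.6% fell. With spike-in scaling 23, 20, 25 and 20 rose, where 44, 47.7, 59.6 and 49.3% of all entries rose. Fastkd2, which binds the ribosomal RNA of the large subunit, rose by 1.64, 1.90, 1.97 and 1.51, and the RNA helicase Ddx28 by 1.36, 1.24, 1.37 and 1.15. Mettl17, a small-subunit assembly factor, rose by 1.36, 1.27, 1.34 and 1.17. Eral1, a GTPase that chaperones the small ribosomal RNA, rose by 0.91, 0.90, 1.24 and 1.31.

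Mitochondrial aminoacyl-tRNA synthetases, which charge the tRNAs used by this ribosome, had 12, 9, 9 and 5 of 16 that rose and 1, 2, 4 and 3 that fell. The background for this and the next lists was 24.9, 27.2, 27 and 27.2% for a rise and 40, 40.5, 40.4 and 34.6% for a fall. Ears2 rose by 1.93, 1.97, 1.98 and 1.17 and Yars2 by 1.46, 1.55 and 0.87 at the last 3 times, with a rise at 6 h too, while Wars2 changed by -0.88, -1.07, -0.84 and -0.48 and fell. Translation factors were divided, with 7, 6, 9 and 5 of 16 that rose and 5, 4, 6 and 4 that fell. Among them the initiation factor Mtif3 rose by 1.23, 1.44, 1.20 and 0.70 and the release factor Mtrf1l by 1.57, 1.64, 1.29 and 0.40. Lrpprc, which stabilises mitochondrial mRNAs, changed by -1.45, -1.43, -1.27 and -0.48 and fell. Of 15 genes for transcription and replication of mitochondrial DNA, 8, 6, 7 and 4 rose and 2, 1, 0 and 3 fell. At 48 h the share that rose was near the background in each list of this paragraph. Tfam, which packages that DNA, rose by 0.63, 0.61 and 0.69 at 6, 12 and 24 h and was at -0.07 at 48 h.

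The nuclear-encoded subunits of oxidative phosphorylation, partners of the proteins that this ribosome makes, mostly fell relative to the 75th percentile. Of 73 tested, 70, 67, 60 and 61 fell and 1, 1, 2 and 3 rose, with medians of -0.76, -0.72, -0.65 and -0.60. Of all entries 40, 40.5, 40.4 and 34.6% fell and 24.9, 27.2, 27 and 27.2% rose. Cytosolic ribosomal proteins had 78, 75, 55 and 67 of 81 that fell and 0, 1, 3 and 0 that rose, with medians of -0.72, -0.57, -0.38 and -0.58. Under spike-in scaling 8, 7, 2 and 5 of the oxidative phosphorylation subunits fell and 3, 8, 18 and 7 rose, and their medians were -0.05, 0.01, 0.30 and 0.04. Under that scaling 0, 0, 0 and 3 cytosolic ribosomal protein genes fell and 2, 5, 53 and 8 rose. Of all entries 4.82, 6.79, 4.1 and 5.85% fell and 44, 47.7, 59.6 and 49.3% rose under it. The median mitochondrial ribosomal protein gene was at 0.70, 0.68, 0.99 and 0.58 there, and no test was run between lists.

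Palmitate changed fewer members and by less. Of 77 tested, 2 rose and 13 fell against untreated cells, 19.5% against a background of 20.1%. Rises made up 2.6% of the members against 7.41% of all entries, and falls 16.9% against 12.6%. The median member changed by -0.07 and the median entry by -0.05. Changes ranged from -0.37 to 0.34, with standard errors of 0.04 to 0.13.

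Mrps6 had signals of 4.07, 4.04 and 3.96 with palmitate, against 3.68, 3.58 and 3.81 in untreated cells and 3.50, 3.48 and 3.58 with oleate. The palmitate arrays lay above all others. The change against untreated cells was 0.34 (SE 0.07, adjusted p = 0.012 by limma), and it was past the threshold under quantile normalization, spike-in scaling and normexp too. It was 0.11 (adjusted p = 0.83 by limma) with the matrix values and 0.28 (adjusted p = 0.16 by limma) without palmitate arrays 1 and 2. Slc5a3, the gene overlapping it, rose by 0.50 (SE 0.05) with palmitate. Mrpl38, a large-subunit protein found only in mitochondria, had 2.06 to 2.12 with palmitate, against 1.95, 1.85 and 1.93 in untreated cells, a rise of 0.18 (SE 0.05, adjusted p = 0.029 by limma). That call was lost with normexp (adjusted p = 0.07 by limma) and without palmitate arrays 1 and 2 (0.14, adjusted p = 0.24 by limma), and the change was -0.05 with the matrix values.

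Mrps33 had signals of 5.83, 5.92 and 5.87 with palmitate, against 6.19, 6.29 and 6.26 in untreated cells. Mrpl14, a large-subunit protein with a bacterial counterpart, had 5.56, 5.63 and 5.63 with palmitate, against 6.02, 5.97 and 5.89 in untreated cells. In neither gene did the groups overlap, and the changes were -0.37 (SE 0.05) and -0.35 (SE 0.05). The next falls were those of Mrps21 (-0.32), Mrps34 (-0.30), Mrpl28 (-0.30), Mrpl40 (-0.28), Mrpl41 (-0.24), Mrpl49 (-0.23) and Mrpl58 (-0.22). Mrpl58 encodes a peptidyl-tRNA hydrolase that became part of the large subunit.

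The calls with palmitate depended on scaling and on the number of arrays. With spike-in scaling, which moved the median entry to 0.18, 2 members rose and 0 fell, where 10% of all entries rose and 0.963% fell. Without palmitate arrays 1 and 2, which carried the skeletal muscle markers, 1 palmitate array was left and was assumed to vary like the other groups. That array lay on another slide than all other fatty acid arrays, so slide and palmitate cannot be told apart there. Then 1 member fell, Mrps33 (-0.38, adjusted p = 0.04 by limma), and 0 rose. The changes were of similar size, with -0.33 for Mrpl14 and a median over members of -0.07. Without palmitate replicate 1 alone, 9 members passed. Most heart muscle markers were lower on all palmitate than on all untreated arrays, while Ryr2 was higher.

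Oleate changed no member past the threshold. By limma 0 of 77 passed, against 0.836% of all entries (0.334% higher and 0.503% lower), and 35 (45.5%) had an unadjusted p under 0.05, against 16.3% of all entries. That number was 17 with quantile normalization, 11 with normexp and 1 with spike-in scaling. Of the changes, 75 were negative and 2 positive, with a median of -0.13 against -0.05 over all entries. The largest were those of Mrpl1 (-0.37, SE 0.09, adjusted p = 0.13 by limma), Mrpl40 (-0.28, adjusted p = 0.052 by limma) and Mrps2 (-0.25, adjusted p = 0.39 by limma). The comparisons of palmitate and of oleate share the untreated arrays.

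Between palmitate and oleate at the same dose and time, 4 members were higher with palmitate and 0 lower, 5.19% against 13.7% of all entries (7.48% higher and 6.27% lower). Mrps6 was higher by 0.51 (SE 0.07, adjusted p = 0.003 by limma), Mrpl38 by 0.32 (SE 0.05), Mrpl13 by 0.20 (SE 0.04) and Mrps15 by 0.19 (SE 0.05). Mrpl1, Mrps2 and Mrps18b, at 0.28, 0.28 and 0.22, did not pass. Without palmitate arrays 1 and 2 the calls of Mrps6 (0.45, adjusted p = 0.06 by limma) and Mrpl38 (0.29, adjusted p = 0.07 by limma) were lost, and with the matrix values their changes were 0.22 and 0.04. Palmitate is saturated and oleate has a double bond. Quantile normalization called 10 members, 7 higher and 3 lower. Leaving out any 1 of oleate replicates 1, 2 and 3 or of palmitate replicates 2 and 3 left 2 members called.

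Members called with palmitate were also called after 48 h of AP20187, in experiments with no array in common. Of the 15 called with palmitate, 14 were called in the same direction at 48 h, 93.3% of them and 27.5% of the 51 members called at 48 h. Among all entries 4212 were called with palmitate and 2511 of them in the same direction at 48 h, 59.6%. The 14 were Mrps6 and Mrpl38, higher in both, and 12 members lower in both. Mrpl49 was lower with palmitate and higher with AP20187 by its brighter probe, while its second probe was lower in both, with -0.41 and -0.43. At 6, 12 and 24 h the members called in the same direction numbered 9, 12 and 13, which is 60, 80 and 86.7% of those called with palmitate, against 46.2, 48.9 and 55.5% of all entries called. Without palmitate arrays 1 and 2, 1 of the 15 palmitate calls was left. With spike-in scaling 0 members were lower in either experiment.

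**Figure D5:**
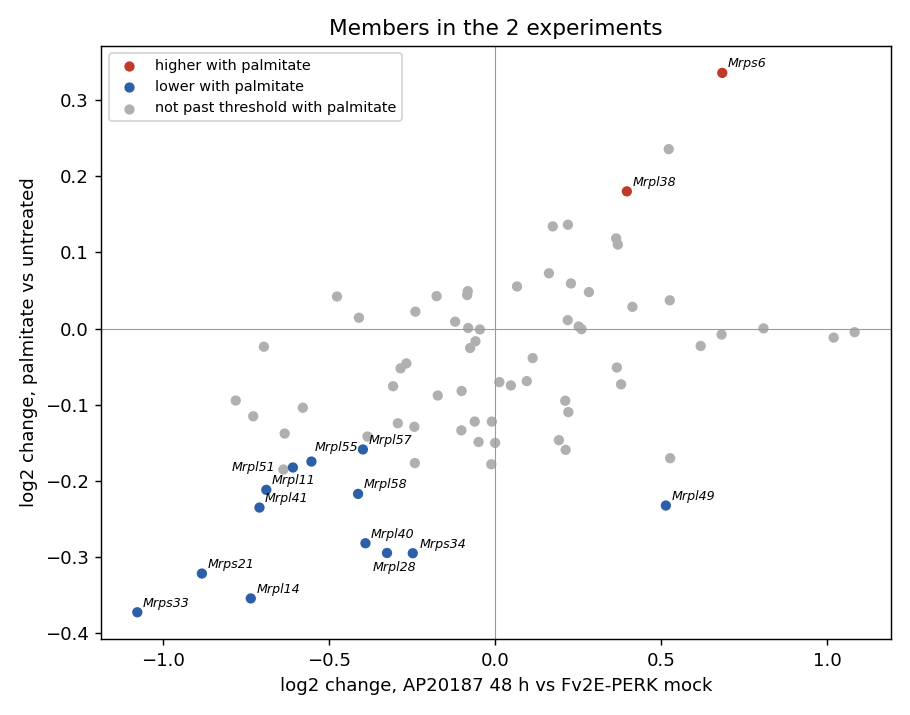
Log2 change with palmitate against untreated (vertical axis) and with 48 h of AP20187 against Fv2E-PERK mock (horizontal axis) for the 77 tested members, on the scale of the array's 75th percentile. Named points passed the threshold with palmitate: 2 lie at upper right, 12 at lower left and Mrpl49 at lower right, though its second probe was lower in both. With spike-in scaling 0 members were lower in either experiment.

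Carrying Fv2E-PERK went with few differences before the drug. Between Fv2E-PERK mock and wild-type mock cells 2 members were higher and 4 lower, 7.79% against 20% of all entries (9.23% higher and 10.8% lower), and slide and genotype cannot be told apart since the groups lay on different slides. Mrps30 had 3.83 and 3.71 in Fv2E-PERK mock cells, against 3.15 and 3.10 in wild-type mock cells, a difference of 0.65 (SE 0.08, adjusted p = 0.0015 by limma). Mrpl18 was higher by 0.42, while Mrpl30 (-0.38), Mrpl9 (-0.37), Mrpl24 (-0.31) and Mrpl52 (-0.26) were lower. Leaving out any 1 wild-type or Fv2E-PERK mock array or any 48 h array left 1 or 2 members called, and Mrps30 passed the threshold each time. With spike-in scaling 0 members were called, and the difference of Mrps30, at 0.66, did not pass. In the same groups 53 of 81 cytosolic ribosomal protein genes were lower and 1 was higher.

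Promoters are shown for the members with the 2 largest rises and the 2 largest falls at 24 h that had an entry, to set their start regions side by side. Each sequence runs from 250 bases before to 50 bases after the annotated start, 5′ to 3′ on the gene's strand, from RefSeq, build GRCm38.p6. Capitals mark matches, on either strand, to 6 motifs: that of NRF1, ETS factors such as GABPA (CCGGAAG), YY1 (AAGATGG), the E-box (CACGTG), the C/EBP-ATF element bound by ATF4 (TGATGNAA) and the TATA box (TATAAA).
Mrpl9 (chr3:94443086-94443385, + strand): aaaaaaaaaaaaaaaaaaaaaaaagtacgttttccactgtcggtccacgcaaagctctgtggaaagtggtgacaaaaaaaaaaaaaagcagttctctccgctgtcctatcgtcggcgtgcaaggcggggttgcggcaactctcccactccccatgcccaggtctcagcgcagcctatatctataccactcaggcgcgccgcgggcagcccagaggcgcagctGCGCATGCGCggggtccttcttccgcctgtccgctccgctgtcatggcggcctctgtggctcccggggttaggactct
Mrps6 (chr16:92058086-92058385, + strand): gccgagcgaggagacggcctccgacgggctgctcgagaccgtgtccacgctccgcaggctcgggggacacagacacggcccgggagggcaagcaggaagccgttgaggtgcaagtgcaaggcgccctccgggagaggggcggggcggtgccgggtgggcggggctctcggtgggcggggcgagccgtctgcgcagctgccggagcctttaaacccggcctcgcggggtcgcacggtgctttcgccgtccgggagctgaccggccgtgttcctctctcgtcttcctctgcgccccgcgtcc
Mrps21 (chr3:95871465-95871764, - strand): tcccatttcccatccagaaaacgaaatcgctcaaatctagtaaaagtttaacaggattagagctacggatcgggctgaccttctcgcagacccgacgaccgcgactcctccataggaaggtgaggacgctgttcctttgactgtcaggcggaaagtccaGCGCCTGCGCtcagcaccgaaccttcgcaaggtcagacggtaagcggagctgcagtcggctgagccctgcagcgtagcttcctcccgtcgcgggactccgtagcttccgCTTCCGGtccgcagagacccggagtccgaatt
Mrps33 (chr6:39810887-39811186, - strand): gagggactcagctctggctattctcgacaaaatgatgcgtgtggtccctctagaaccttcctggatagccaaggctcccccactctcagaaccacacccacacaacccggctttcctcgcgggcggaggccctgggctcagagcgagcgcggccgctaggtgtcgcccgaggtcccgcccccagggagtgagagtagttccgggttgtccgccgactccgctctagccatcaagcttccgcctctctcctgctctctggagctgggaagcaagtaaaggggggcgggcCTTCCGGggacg
Mrpl9 held a palindromic NRF1 match at position -28 from the start. Mrps21 held an NRF1 match at -91 and an ETS match at 18. Mrps33 held an ETS match at 38. Mrps6 held none of the 6 motifs in this window.

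Over the family, 69 members had a promoter in the table, with 75 promoters in all. The ETS motif was found in 26 of the 75 (34.7%), against 8.86% of all 32851 promoters in the table. NRF1 matches were found in 13 (17.3%), against 4.6%, and YY1 matches in 13 (17.3%), against 6.34%. NRF1 and GABPA are known activators of nuclear genes for mitochondrial proteins. The TATA box was in 5 (6.67%), against 13.6%, the E-box in 7 (9.33%), against 7.15%, and the CCAAT box, the seventh motif counted, in 30 (40%), against 37.4%. The C/EBP-ATF element was in 0 of 75, against 3.97%. A match describes letters and is not a site of binding, and no match says only that these letters are absent from this window. At 48 h of AP20187, the YY1 motif was in 6 of 19 members that rose and 2 of 26 that fell, counted over members with a promoter. The ETS motif was in 5 of 19 and 12 of 26. Of 23 members that did not pass, 5 held YY1 and 8 ETS. NRF1, E-box, CCAAT and TATA matches were in 3, 3, 6 and 2 of the 19 and 4, 1, 13 and 1 of the 26. For ETS the counts were 5 of 17 that rose and 7 of 22 that fell at 6 h, and 7 of 23 and 9 of 20 at 24 h. For YY1 they were 5 of 17 and 1 of 22, and 6 of 23 and 2 of 20. A link of motif and direction was not tested.

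Mrps11 and Mrpl46 start 42 bases apart on opposite strands, so that their promoter windows share 141 bases. The window of Mrps11 is shown because both starts lie in it, with a YY1 match in capitals at position -106 from the Mrps11 start. That match lies outside the shared bases.
Mrps11 (chr7:78782881-78783180, + strand): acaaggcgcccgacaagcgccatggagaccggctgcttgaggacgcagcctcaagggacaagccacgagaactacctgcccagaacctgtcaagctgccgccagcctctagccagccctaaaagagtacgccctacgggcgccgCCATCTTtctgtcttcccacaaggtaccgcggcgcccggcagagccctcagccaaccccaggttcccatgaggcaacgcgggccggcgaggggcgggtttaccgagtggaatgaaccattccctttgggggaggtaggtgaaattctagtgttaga
Mrpl46 changed by 0.12, 0.09, 0.24 and 0.22 at 6, 12, 24 and 48 h of AP20187 and rose at 24 and 48 h. Mrps11 changed by -0.08, -0.02, 0.11 and 0.21 and did not pass the threshold at any time, though it was higher at 48 h than at 6 h by 0.29 (SE 0.09, adjusted p = 0.021 by limma).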

How the data were processed

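Expression was measured on 21 one-colour Agilent arrays, and per the file headers the authors' spot intensity values come from Agilent Feature Extraction 10.7.1.1, background-subtracted and not scaled between arrays. The deposited series matrix holds log2 values. Compared with the scanner files, each equals the processed signal in log2 less an array constant and a probe baseline, so scale and direction are known, but what the baseline was is not. The constants differ from the 75th percentile by -0.194 to 0.491 in the fatty acid experiment, where 10480 to 17661 probes per array are blank, and by at most 0.002 in the PERK experiment. Matrix columns have medians of -0.27, -0.23 and -0.26 for palmitate, 0.35, -0.13 and -0.18 for oleate, 0.26, 0.01 and -0.26 for untreated, 0.19 and 0.33 for mock Fv2E-PERK cells, -0.25 and -0.12 (6 h), -0.28 and -0.20 (12 h), -0.32 and -0.14 (24 h), -0.20 and -0.18 (48 h), and 0.12 and 0.09 for wild-type mock.

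Control spots (3671 per array) and outlier spots were left out, and 0 spots were saturated. Each probe's spots were averaged, and the log2 of the array's 75th percentile was subtracted. Of 55681 probes, 26582 were named through RefSeq accessions (assembly GRCm38.p6). Of 37208 entries, those well above background on every array of some group in the experiment were tested, with limma 3.58.1 (R 4.3.3) and 1 coefficient per group. For 5 members 1 outlier spot left 1 array without a value. Alternatives were quantile, spike-in (10 probes) and normexp scaling (on median signals, offset 50), no filter, the mean of a gene's probes, the matrix values, slide and replicate blocks, and arrays left out.

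Same-numbered arrays were not paired in the main fit. Correlations of their deviations were -0.03 to 0.04 over 9 pairs of fatty acid arrays and -0.01 to 0.13 over 30 pairs of PERK arrays. In each PERK group, replicate 1 lay in row 1 of its slide and replicate 2 in row 2. Replicate 1 had the higher signal at the 75th percentile in each of these groups. Title and source name disagree on the number of 1 wild-type mock array, and the title was used. Members named in a comparison are up to 10 with the largest changes past the threshold, those called against the majority, and the 3 largest others where fewer than 5 passed. Members are not ranked by expression from their signals, since probes differ in affinity. Signal order served to set the change of a member against the brightness of its probe. Members and lists were chosen with earlier results of these data known.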

Additional observations from a re-analysis of the deposited data

Results flagged for a closer look

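The effects of AP20187 at 48 h and at 6 h, each against the same mock arrays, differed for 34 members by the limma test of the difference itself (adjusted p under 0.05). The larger differences below 0 were those of Mrpl19 (-1.03), Mrps26 (-0.72), Mrps16 (-0.69), Mrpl58 (-0.48), Mrpl1 (-0.48), Mrps25 (-0.43) and Mrps33 (-0.43). Smaller ones were those of Mrpl40 (-0.38), Mrpl49 (-0.37), Mrpl55 (-0.37), Mrpl47 (-0.36), Mrpl51 (-0.36), Mrpl14 (-0.33), Mrps31 (-0.32), Mrpl4 (-0.32), Mrps34 (-0.32), Mrps7 (-0.31), Mrpl57 (-0.28), Mrps18b (-0.26), Mrps12 (-0.26), Mrpl16 (-0.24), Mrpl43 (-0.23) and Mrps35 (-0.23). Above 0 were Mrpl37 (0.61), Mrpl10 (0.57), Mrps18c (0.56), Mrps2 (0.52), Mrps27 (0.52), Mrps14 (0.36), Mrpl42 (0.34), Mrps5 (0.32), Mrps24 (0.29), Mrpl23 (0.29) and Mrps11 (0.29). Second probes were called in the opposite direction for Mrps25 (0.85), Mrpl4 (0.56) and Mrps14 (-0.24), and that of Mrps26 (-0.12) did not pass. The 2 times lay on different slides, so slide and time cannot be told apart, and with spike-in scaling 4 were lower (Mrpl19, Mrpl58, Mrps26 and Mrps16) and 1 higher (Mrpl37). Groups of 2 or 3 arrays were not tested for outlying samples.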

How the results depend on the processing

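The replicate block, with same-numbered arrays as pairs, gave 10 members for palmitate against untreated, 3 for palmitate against oleate, 43, 41, 47 and 46 for AP20187 at 6, 12, 24 and 48 h, 33 for 48 h against 6 h, 24 for 24 h against 6 h and 4 for Fv2E-PERK mock against wild-type mock. It lowered the count for palmitate against untreated by 1.5 times and moved others by no more. For palmitate against untreated the count of 15 became 2 with spike-in scaling, 9 with normexp, 5 without the filter on dim probes, 1 with the matrix values and 1 without palmitate arrays 1 and 2. For palmitate against oleate the count of 4 became 10 with quantile normalization, 2 without the filter, 0 with the matrix values, 2 with slide as a block and 2 without palmitate arrays 1 and 2. For oleate against untreated the matrix values called 1. Spike-in scaling called 5 between 48 h and 6 h, 8 between 24 h and 6 h (16 without the filter) and 0 between the mock groups (1 without the filter). Leaving out single arrays gave 9 to 14 for palmitate against untreated, 0 for oleate, 2 to 5 for palmitate against oleate, 31 to 45, 37 to 45, 39 to 49 and 35 to 52 for AP20187 at 6, 12, 24 and 48 h, 19 to 36 for 48 h against 6 h (19 without AP20187 6 h replicate 1, 21 without AP20187 48 h replicate 2), 10 to 29 for 24 h against 6 h, 37 to 53 for 48 h against wild-type mock and 1 to 6 between the mock groups. Slide as a block could not be fitted in the PERK experiment, where each group lay on 1 slide. Changes that turned sign with spike-in scaling were, at 6 h, Mrps33 (0.06); at 12 h, Mrps33 (0.06), Mrpl11 (0.08), Mrpl28 (0.16), Mrpl42 (0.19), Mrpl16 (0.20), Mrpl55 (0.23), Mrps36 (0.26) and Mrpl23 (0.26); and at 24 h, Mrps33 (0.0003), Mrpl34 (0.13), Mrps25 (0.28), Mrpl16 (0.28), Mrpl55 (0.32), Mrpl11 (0.37), Mrps36 (0.40), Mrpl28 (0.42) and Mrpl18 (0.46). Between 24 h and 6 h they were Mrpl58 (0.0007) and Mrps12 (0.01), and with palmitate against untreated Mrpl58 (0.01). With the matrix values Mrpl58 (0.14) and Mrpl38 (-0.05) turned with palmitate against untreated, and Mrpl13 (-0.09), Mrps15 (-0.10), Mrpl1 (-0.0028), Mrps2 (-0.0034) and Mrps18b (-0.07) against oleate. Why these values moved was not tested. The comparisons of 48 h with wild-type mock and of 24 h with 6 h were chosen after the data were seen.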
